A study of Mus musculus with 4 samples.

Results

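A set of 10 genes of the laminin network and its linkers was followed in sorted dermal cells of the embryonic mouse: the laminin chains Lama2, Lama4, Lama5, Lamb2 and Lamc1, the nidogens Nid1 and Nid2, the proteoglycans perlecan (Hspg2) and agrin (Agrn), and Egfl6. They were chosen by name as chains of laminin or proteins that tie laminin to other matrix and to cells, and all 10 were found among the 32126 gene names present in all 4 tables. The study asked whether Wnt-responsive dermal cells of different body sites have different transcriptomes. All 4 groups came from embryos with an Axin2-LacZ reporter, in which LacZ reports Axin2, a feedback gene of canonical Wnt signalling, and cells were separated by the reporter by flow cytometry. Collagenase at 1000 U/ml, hyaluronidase at 300 U/ml and 4% FBS are recorded for all 4 groups. The skins sampled were those of the ventral foot at E17.5 and of the dorsal back at E14.5, with 1 library labelled Axin2-pos and 1 labelled Axin2-neg from each. Each group is 1 library, so no difference has a replicate check, no test was possible and no p-value is given. The sources used here do not give the strain, the allele copy number, the litter or the number of embryos pooled.

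Laminins are trimers of an alpha, a beta and a gamma chain that are secreted and polymerise into the sheet of a basement membrane. Nidogens and perlecan join that sheet to the collagen IV network, and the alpha chains and agrin bind integrins and dystroglycan on cells. In embryonic skin, basement membranes lie under the epidermis and its appendage buds and around vessels, nerves and muscle, and dermal cells contribute several of their parts.

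Values are FPKM as deposited, a level per kilobase of transcript that is also scaled to the fragments of the library, so genes can be compared within a library. The range in brackets is the authors' lower and upper bound, which covers counting and read assignment in 1 library and not differences between animals. Log2 ratios were taken on rescaled FPKM with 1 added, and the number after ± is a margin that joins the bounds of the values compared. A gene was called higher or lower where its log2 ratio reached 1 in size and the larger of its rescaled FPKM values reached 5. The median margin of single values was 19.8% and 11.6% of the FPKM in the labelled-positive and labelled-negative foot libraries and 8.07% and 9.27% in the back libraries, so the foot values are the less precise ones.

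The reporter's own gene did not follow the label in the foot. Axin2 stood at 9.65 FPKM (7.10 to 12.5) in the foot library labelled positive and at 12.9 FPKM (10.2 to 15.3) in the foot library labelled negative, with overlapping bounds. In the back it stood higher under the positive label, at 4.49 FPKM (3.89 to 5.09) against 3.13 FPKM (2.63 to 3.64). The foot libraries are therefore named by their labels throughout. All 8 dermal fibroblast markers were detected in every library, and they summed to between 3070 and 7141 FPKM. Keratinocyte markers summed to 7.56 and 0 FPKM in the labelled-positive and labelled-negative foot libraries and to 61.4 and 25.6 FPKM in the back libraries, with 6 and 8 of 8 listed at 0 in the foot, Krt5 and Krt14 among them. In the back, Krt5, Krt14 and Krt15 were in assembled loci merged with keratins not listed, so those sums include other genes. Krt10 in the back library labelled positive, at 23.5 FPKM, lay outside its own bounds (18.1 to 21.95). Endothelial markers summed to 0.979 and 0.461 FPKM in the foot and to 6.58 and 4.64 FPKM in the back, and 5 of 7, among them Pecam1 and Cdh5, were listed at 0 in each foot library. Mast cell markers summed to 2.17 FPKM in the foot library labelled positive and 264.6 FPKM in the one labelled negative, against 24.7 and 84.1 FPKM in the back. Cma1 made up most of the 264.6 FPKM, at 164.7 FPKM, which lay outside its own bounds (119.2 to 139.5). For the negative label Cma1 and Tpsb2 were higher in the foot, while Cpa3 stood at 32.75 FPKM in the foot and 49.95 FPKM in the back. Leukocyte markers summed to 0.788 and 2.48 FPKM in the foot and to 3.15 and 13.7 FPKM in the back, in the same order of labels. In bulk RNA, fewer cells of a type and less RNA per cell cannot be told apart, and the part of these cell types in the results was not tested.

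Of the 10 genes, 7 had an upstream sequence in the RefSeq table on GRCm38.p6, and the windows of Lama2 and Agrn are shown because these genes were higher in the libraries labelled positive of both skins. Each window holds the 250 bases before an annotated start and was searched on both strands for the core of the TCF/LEF motif, CTTTGA, and for the GC box, GGGCGG, with overlapping matches counted. The capitals mark the motif matches, CTTTGA in Lama2 and GGGCGG in Agrn, or their reverse complements. The Lama2 window is chr10:27616943-27617192 and the Agrn window chr4:156197489-156197738, both on the minus strand and written 5′ to 3′ along the gene.
Lama2: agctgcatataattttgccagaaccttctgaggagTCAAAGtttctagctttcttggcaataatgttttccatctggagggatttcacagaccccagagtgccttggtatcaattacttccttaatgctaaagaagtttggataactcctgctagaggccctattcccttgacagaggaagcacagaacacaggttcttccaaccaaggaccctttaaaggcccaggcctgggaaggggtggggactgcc
Agrn: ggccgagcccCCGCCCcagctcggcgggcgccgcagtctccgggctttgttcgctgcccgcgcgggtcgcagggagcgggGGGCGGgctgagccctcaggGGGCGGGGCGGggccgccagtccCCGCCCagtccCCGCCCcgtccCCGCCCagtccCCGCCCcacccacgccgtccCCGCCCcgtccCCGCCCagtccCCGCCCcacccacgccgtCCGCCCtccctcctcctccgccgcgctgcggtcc

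The Lama2 window held 1 TCF/LEF core, 215 bases before the start and on the opposite strand, and no GC box. It was the only one of the 7 genes with that core, which 13.8% of all 32851 windows of this length held. The Agrn window held 12 GC boxes at a GC content of 83.6%, against 47.2% in Lama2, and a second annotated Agrn start had 2 boxes. A GC box was present in 5 of the 7 genes (Lama5, Nid1, Hspg2, Egfl6 and Agrn) and in 32.7% of all windows. These matches describe letters in the windows only.

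Across the whole set, the label separated different genes in different directions. In the foot, 2 of the 10 genes were called higher in the library labelled positive (Lama2 and Agrn), where 11.3% of the 5464 genes past the filter were, and 2 were called lower (Lamb2 and Hspg2), where 9.77% were. In the back, 1 was called higher (Agrn) where 4.05% of 5256 genes were, and 0 were called lower where 3.61% were. The filter on low values was passed by 6 of the 10 in the foot and 9 of the 10 in the back. The median log2 ratio over all 10, genes listed at 0 included, was 0.00 in the foot and 0.11 in the back. The medians over all genes past the filter, which the 10 were not held to, were 0.02 and 0.00. The foot median of the 10 is set by Lama5 and Nid2, which are listed at 0 in both foot libraries. Lama2 and Agrn were above 0 in both skins with bounds apart, Nid1 was below 0 in both, and the remaining genes did not share a side beyond their margins.

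**Figure D1:**
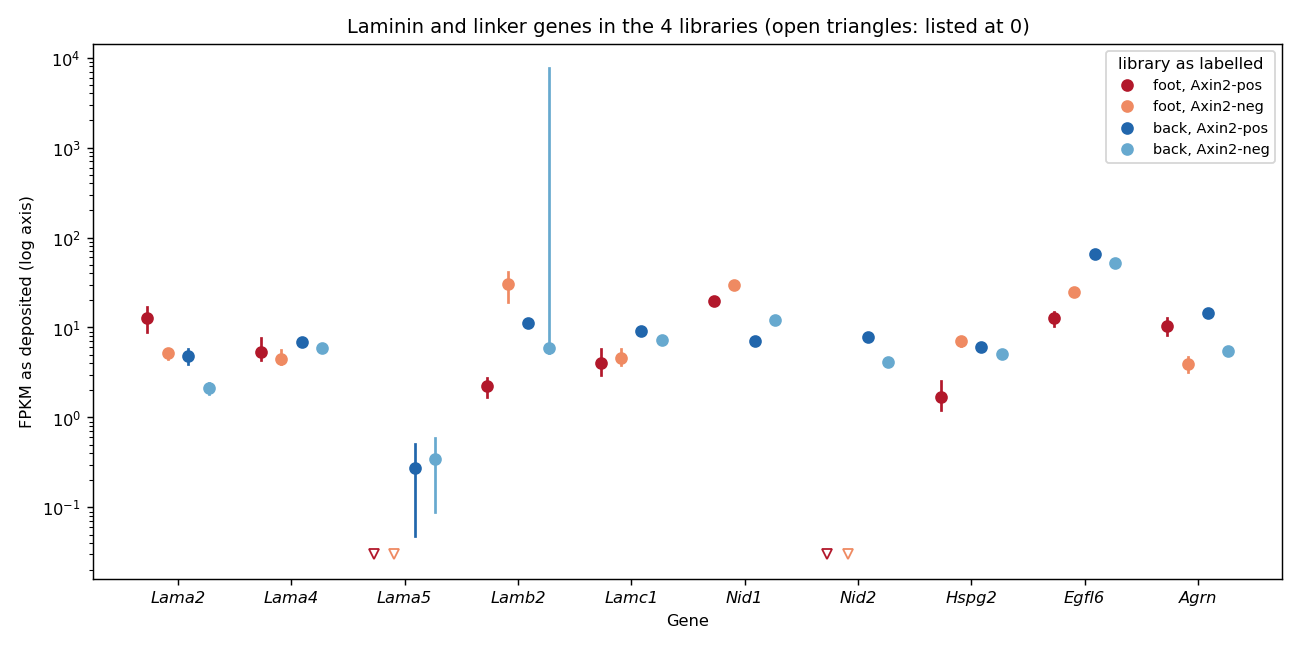
FPKM of the 10 genes in the 4 libraries (log axis), coloured by library, with the authors' lower and upper bounds as bars and open triangles for values listed at 0. Lama2 and Agrn are higher in the library labelled positive of each skin, Egfl6 is highest in the back at 66.2 and 52.8 FPKM, and Nid2 and Lama5 are listed at 0 in both foot libraries.

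The alpha chains carry the sites that bind cells, and Lama2, the chain of muscle and peripheral nerve laminin, was the alpha chain that differed by label. Lama2 (chromosome 10, 26701094 to 27336748 on mm9) stood at 12.8 FPKM (8.98 to 16.7) and 5.15 FPKM (4.51 to 5.78) in the labelled-positive and labelled-negative foot libraries, and at 4.82 FPKM (3.90 to 5.73) and 2.13 FPKM (1.83 to 2.43) in the back libraries in the same order. The foot library labelled positive was the highest and the back library labelled negative the lowest, and in each skin the bounds of the label pair did not overlap. The log2 ratio was 1.36 ± 0.44 in the foot, a 2.56-fold higher level on this scale, and 0.75 ± 0.28 in the back, which did not reach the call. The difference between the skins, 0.61 ± 0.52, was little wider than its margin. With 5 added in place of 1, the foot ratio was 0.90 and the call was lost. Skeletal muscle markers, 5 of 6 with an entry, summed to between 0.771 and 1.30 FPKM in the 4 libraries. Myod1 and Myog were listed at 0 in both foot libraries. Des went the other way, at 1.30 FPKM (0 to 3.07) and 0.740 FPKM in the labelled-positive and labelled-negative foot libraries. In the back it stood at 0.103 and 0.251 FPKM. A list of 7 Schwann cell and melanocyte markers summed to 2.59, 1.09, 0.962 and 0.774 FPKM, in the library order of Lama2, with Sox10 and Erbb3 listed at 0 in both foot libraries. Their part in the Lama2 levels was not tested.

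Lama4, the alpha chain of vessel walls and of many mesenchymal cells, was nearly level across the labels. It stood at 5.33 FPKM (4.32 to 7.68), 4.49 FPKM (3.90 to 5.56), 6.97 FPKM (6.49 to 7.54) and 5.93 FPKM (5.41 to 6.50) in the labelled-positive and labelled-negative foot libraries and the labelled-positive and labelled-negative back libraries. Neither label ratio, 0.40 ± 0.40 for the foot and 0.01 ± 0.15 for the back, was larger than its margin. Lama5, the alpha chain of most epithelial basement membranes, was listed at 0 in both foot libraries and at 0.277 FPKM (0.0487 to 0.506) and 0.344 FPKM (0.0890 to 0.598) in the back. The back bounds of Lama5 overlapped, and no fold against the foot is given. The remaining alpha chains were low, with Lama1 at no more than 0.767 FPKM and Lama3 at no more than 0.364 FPKM in any library.

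The makeup of the alpha chain transcripts differed between libraries. Lama2 made up 69.25% and 53.4% of the summed alpha chain FPKM in the labelled-positive and labelled-negative foot libraries, and 38.1% and 23.1% in the back libraries. Lama4 made up 28.8%, 46.6%, 55.1% and 64.3% in the same order. Lama2 was thus the larger alpha chain transcript in both foot libraries and Lama4 in both back libraries, although in the foot library labelled negative the 2 levels overlapped in their bounds.

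Lamb2, the beta chain known from neuromuscular junctions and the kidney filter, had the widest spread among the genes measured above 0 in every library. Lamb2 (chromosome 9, 108382193 to 108392861) stood at 2.23 FPKM (1.68 to 2.77) in the foot library labelled positive and at 30.4 FPKM (19.0 to 41.6) in the foot library labelled negative. The back libraries held 11.3 FPKM (10.2 to 12.4) under the positive label and 5.84 FPKM (5.19 to 7602) under the negative. The foot values lay on either side of both back values, and the upper bound of 7602 leaves the back level labelled negative without a usable limit. The log2 ratio was -3.01 ± 0.59 in the foot and 0.66 ± 5.16 in the back, and the difference between the skins, -3.67 ± 5.19, is not bounded. In the foot library labelled positive the Lamb2 value came from a reference gene entry, and in the other 3 from an assembled one. A locus of the neighbour Usp19 reached into Lamb2 in the back library labelled positive, at 6.66 FPKM. The foot library labelled negative, where Lamb2 was highest, was also the one with 264.6 FPKM of mast cell markers. In the back these markers were higher under the negative label, at 84.1 against 24.7 FPKM, where the Lamb2 value was the lower one. The part of mast cells in the Lamb2 levels was not tested.

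Lamb1, the widely used beta chain and not one of the 10, gives the comparison for Lamb2. It stood at 9.85 FPKM (8.57 to 13.7), 19.9 FPKM (18.2 to 21.5), 15.4 FPKM (14.6 to 16.3) and 9.68 FPKM (8.95 to 10.4) in the foot by positive and negative label and then likewise in the back. Its foot ratio of -0.71 ± 0.33 had the sign of the Lamb2 ratio at a smaller size, and its back ratio was 0.42 ± 0.13. The ratio of Lamb1 to Lamb2 FPKM was 4.41, 0.654, 1.37 and 1.66 in that order, so Lamb2 was the larger beta chain transcript only in the foot library labelled negative, where the bounds of both chains overlapped.

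Lamc1, the gamma chain of nearly all laminins outside the epidermis, was close to level across the labels. It stood at 4.04 FPKM (3.0 to 5.80) and 4.53 FPKM (3.79 to 5.77) in the labelled-positive and labelled-negative foot libraries, and at 9.24 FPKM (8.85 to 9.94) and 7.24 FPKM (6.74 to 7.92) in the back. As deposited, each back value was above both foot values, with bounds apart. The label ratios were 0.06 ± 0.45 in the foot and 0.12 ± 0.13 in the back. Assembled entries without a name lay inside Lamc1 at its 3′ end, at 7.91 FPKM in the foot library labelled negative and 6.57 FPKM in the back library labelled positive. A longer one over the same end in the foot library labelled positive, 64.4 FPKM over 20413 bases, lay outside its own bounds (34.1 to 57.1) and could not be added. Adding the other entries by length made those Lamc1 levels 7.43 and 11.7 FPKM, and the foot level labelled negative was then above the back level of 7.24 FPKM. The foot label ratio was then -0.52, with an entry added to 1 side of the pair only, and the back label ratio 0.42.

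Sums over all chains of a type show which libraries departed most from equal chain levels. The summed beta chain FPKM was 12.1, 50.2, 26.8 and 15.5 in the labelled-positive and labelled-negative foot libraries and the labelled-positive and labelled-negative back libraries. Alpha chain sums were 18.5, 9.64, 12.7 and 9.23, and gamma chain sums 5.02, 5.80, 9.64 and 7.65. The alpha to beta ratio was 1.53 in the foot library labelled positive, the only library above 1, and 0.192 in the foot library labelled negative, with 0.473 and 0.594 in the back. The beta to gamma ratio was 8.66 in the foot library labelled negative and between 2.03 and 2.78 in the other 3. With the unnamed Lamc1 entries added, that value was 5.77. These are transcript ratios and not ratios of protein chains.

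**Figure D2:**
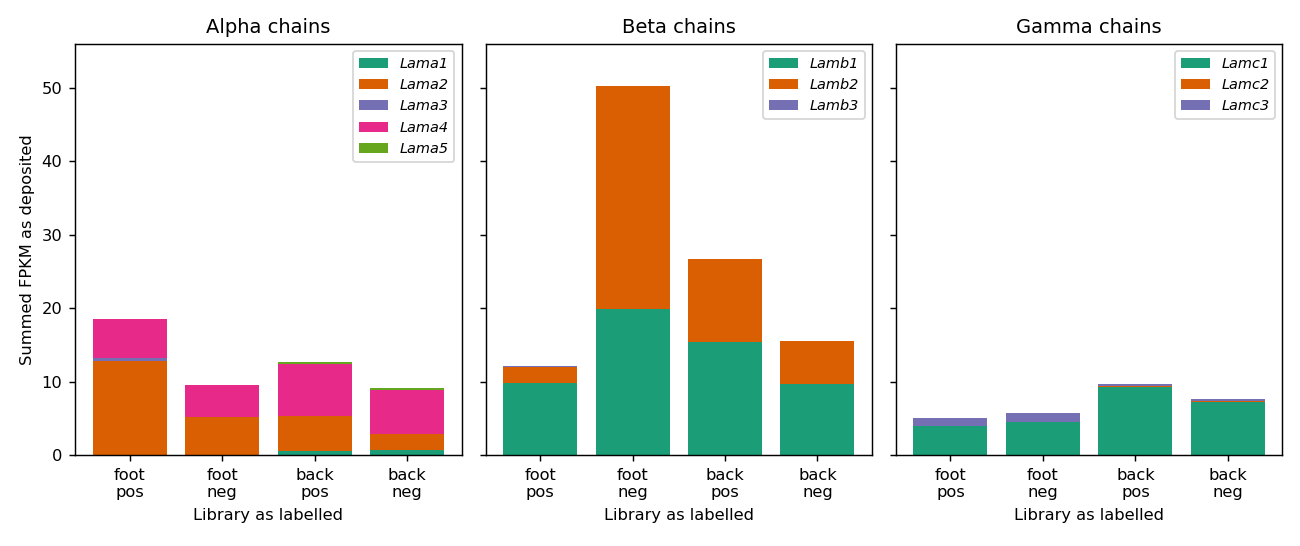
Summed FPKM of the alpha, beta and gamma laminin chain genes in each library as labelled, stacked by gene, with no error bars. The beta bar of the foot library labelled negative reaches 50.2 FPKM, with Lamb2 the larger part, while the gamma bars stay between 5.02 and 9.64 FPKM.

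The nidogens, which link laminin to collagen IV, differed between the labels and between the skins. Nid1 (chromosome 13, 13529869 to 13604542) stood at 19.6 FPKM (17.6 to 21.6) and 29.5 FPKM (28.0 to 31.3) in the labelled-positive and labelled-negative foot libraries, and at 7.0 FPKM (6.51 to 7.49) and 12.2 FPKM (11.5 to 12.9) in the back. In each skin the library labelled negative was the higher, with bounds apart, and both foot values were above both back values. The log2 ratios were -0.33 ± 0.16 in the foot and -0.94 ± 0.12 in the back, neither past the call. An unnamed assembled entry of 20.3 FPKM (19.0 to 21.7) covered the 3′ end of Nid1, 13602166 to 13604542, in the back library labelled positive with no such entry in the other 3 libraries. Adding it by length made that Nid1 level 14.9 FPKM and the back ratio 0.06 ± 0.13, so the back difference was not seen with that entry added.

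Nid2 was measured in the back and listed at 0 in the foot. In the labelled-positive and labelled-negative back libraries it stood at 7.93 FPKM (7.40 to 8.46) and 4.16 FPKM (3.78 to 4.53), a log2 ratio of 0.62 ± 0.14 with bounds apart. The sign was opposite to that of Nid1 as deposited, but not to the 0.06 found for Nid1 with the unnamed entry added. In the foot the upper bounds were 0.0839 and 0.0370 FPKM, and no fold is given because 8466 and 7628 of 19160 coding genes were listed at 0 in those libraries. Nid2 made up 53.1% of the summed nidogen FPKM in the back library labelled positive and 25.4% in the one labelled negative. The nidogen sums themselves were 14.9 and 16.4 FPKM there, against 19.6 and 29.5 FPKM in the foot, all of it Nid1. With the unnamed Nid1 entry added, the sum in the back library labelled positive was 22.9 FPKM and the Nid2 share 34.7%. An unnamed entry of 53.5 FPKM over 6210 bases also lay at the end of Nid2 in the back library labelled negative, outside its own bounds (29.1 to 39.2), and was not added. The neighbour 2700060E02Rik overlapped the end of Nid2 in every library, at between 39.0 and 130 FPKM.

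**Figure D3:**
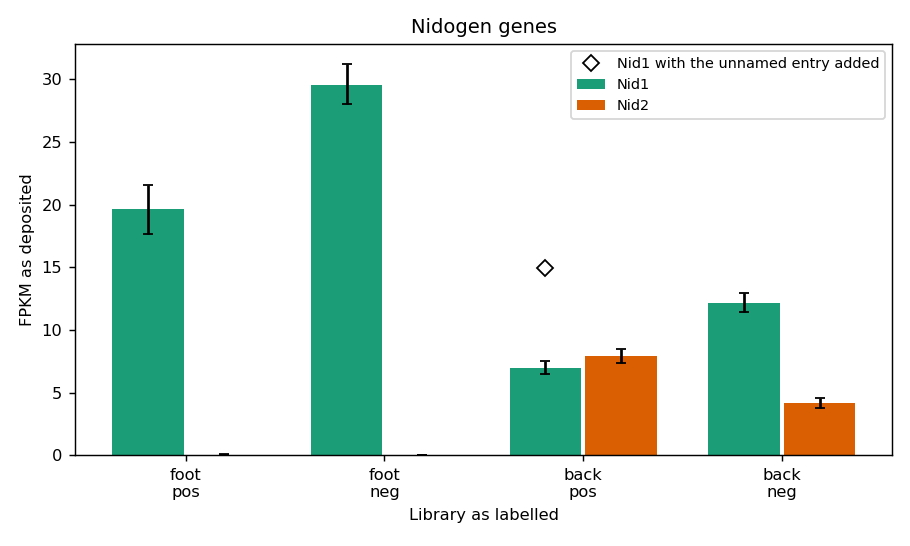
FPKM of Nid1 and Nid2 in each library as labelled, with the authors' bounds as error bars and a diamond for Nid1 with the unnamed 3′ entry added. Nid1 is at 19.6 and 29.5 FPKM in the foot, Nid2 is seen only in the back, and the diamond at 14.9 FPKM is above the back Nid1 bar labelled negative at 12.2 FPKM.

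Perlecan, the large heparan sulfate proteoglycan of basement membranes and cartilage, was low in a single library. Hspg2 (chromosome 4, 137024634 to 137126545) stood at 1.71 FPKM (1.21 to 2.51) in the foot library labelled positive, 7.04 FPKM (6.18 to 7.90) in the foot library labelled negative, and 6.03 FPKM (5.75 to 6.42) and 5.04 FPKM (4.69 to 5.39) in the labelled-positive and labelled-negative back libraries. The other 3 libraries lay within a narrow range and none overlapped the foot library labelled positive in its bounds. The log2 ratio was -1.33 ± 0.36 in the foot and 0.03 ± 0.11 in the back. The difference between the skins, -1.36 ± 0.37, was larger than its margin but rests on that 1 library.

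Agrin, the proteoglycan that bridges laminin to dystroglycan and clusters acetylcholine receptors at the neuromuscular junction, was higher in the library labelled positive of both skins. Agrn (chromosome 4, 155539399 to 155571536) stood at 10.5 FPKM (8.19 to 12.7) and 3.93 FPKM (3.21 to 4.67) in the labelled-positive and labelled-negative foot libraries, and at 14.6 FPKM (13.8 to 15.3) and 5.54 FPKM (5.08 to 6.02) in the back. Both positive libraries were above both negative ones, with bounds apart. The log2 ratio was 1.39 ± 0.35 in the foot and 1.07 ± 0.13 in the back, 2.62-fold and 2.10-fold on this scale. The difference between the skins, 0.32 ± 0.37, was within its margin. With 5 added in place of 1 the ratios were 0.86 and 0.79, below the call, and with a minimum of 10 FPKM the foot value no longer passed the filter. Keratinocyte markers, of a cell type that also makes agrin, had the higher sum in the library labelled positive of each skin, as given above. In the foot that sum was mostly Krt10, at 7.38 FPKM under the positive label, while Krt5 and Krt14 were listed at 0 under both labels. The part of these markers in the Agrn levels was not tested.

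Egfl6, a secreted protein with EGF repeats that binds integrin alpha8 and is known from the basement membrane around hair follicles, was the most abundant of the 10 in the back. Egfl6 (chromosome X, 162960939 to 163023652) stood at 12.9 FPKM (10.4 to 15.0) and 24.8 FPKM (22.7 to 26.9) in the labelled-positive and labelled-negative foot libraries, and at 66.2 FPKM (64.1 to 69.2) and 52.8 FPKM (50.5 to 55.3) in the back. The foot library labelled positive was the lowest of the 4, and the foot and back bounds did not overlap. The log2 ratio was -0.66 ± 0.27 in the foot and 0.10 ± 0.09 in the back, where the rescaled bounds overlapped. An unnamed entry of 52.6 FPKM over 45533 bases lay inside Egfl6 in the back library labelled positive, outside its own bounds (38.7 to 45.7), and was not added. The gene for its receptor chain, Itga8, stood at 6.22 FPKM (4.21 to 8.23), 3.92 FPKM (2.98 to 4.87), 4.15 FPKM (3.71 to 4.63) and 6.36 FPKM (5.37 to 7.21) in the same order of libraries. The Itga8 label ratio was 0.73 ± 0.49 for the foot and -0.72 ± 0.23 for the back, opposite in sign to Egfl6 in each skin.

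**Figure D4:**
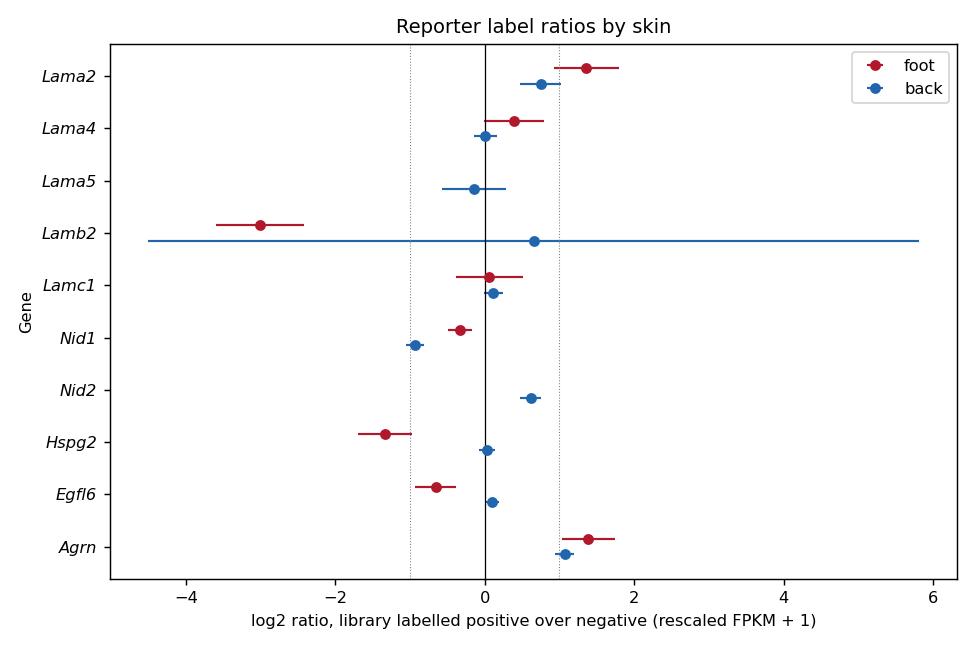
Log2 ratio of the library labelled positive over the one labelled negative for each gene, in the foot (red) and the back (blue), on rescaled FPKM with 1 added, with bars for the margin from the authors' bounds and dotted lines at 1 in size. Agrn lies at 1.39 and 1.07, Lama2 at 1.36 and 0.75, Lamb2 at -3.01 in the foot with an unbounded back value, and Lama5 and Nid2 have no foot point because they are listed at 0.

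The label effect was then set against itself across the skins. Of the 10 genes, 0 were called higher and 2 lower (Lamb2 and Hspg2) when the back log2 ratio was subtracted from the foot one, where 13.1% of 6258 genes were called higher and 13.1% lower. The median difference over the 10, unfiltered, was 0.04, against -0.01 over all genes past the filter. For Lamb2 the margin was wider than the value, so Hspg2 was the only member called whose difference exceeded its margin.

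Foot and back differ in site and in stage together, and the 2 cannot be told apart. These comparisons reuse the same 4 libraries as the label comparisons. Between the libraries labelled positive, 2 of the 10 genes were called higher in the foot (Lama2 and Nid1), where 16.1% of 5763 genes were, and 5 lower (Lamb2, Lamc1, Nid2, Hspg2 and Egfl6), where 15% were. Between the libraries labelled negative, 1 was called higher (Lamb2), where 14.8% of 5582 genes were, and 3 lower (Lamc1, Nid2 and Egfl6), where 14.48% were. The medians over the 10, unfiltered, were -0.94 and -0.72, against 0.03 and 0.03 over all genes past the filter. The filter was passed by 9 and by 8 of the 10. Nid2, listed at 0 in both foot libraries, passed it through its back values alone. Its calls rest on a foot value of 0 with 1 added, and no fold is drawn from them.

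Egfl6 had the largest measured foot to back difference among the genes above 0 in every library for the positive label, at -2.50 ± 0.25, and stood at -1.74 ± 0.13 for the negative. Lamc1 was lower in the foot by both labels, at -1.22 ± 0.38 and -1.17 ± 0.26. For Lamc1 the comparison labelled negative was -0.57 without rescaling and -0.59 with the unnamed entry added, and each ended that call. Lama2 was higher in the foot, at 1.04 ± 0.47 for the label positive and 0.43 ± 0.21 for the label negative. Nid1 was also higher in the foot, at 1.15 ± 0.16 and 0.54 ± 0.11, but with the unnamed entry added the first of these was 0.15 ± 0.17. Hspg2 differed for the positive label, at -1.55 ± 0.33, while for the negative label it was -0.19 ± 0.17 and turned to 0.41 without rescaling. Lamb2 stood on opposite sides, at -2.11 ± 0.27 for the positive label and 1.55 ± 5.18 for the negative. Agrn was lower in the foot by both labels, at -0.66 ± 0.30 and -0.98 ± 0.23, and Lama4 at -0.53 ± 0.36 and -0.92 ± 0.23, none past the call. Keratinocyte and endothelial markers had lower sums in the foot than in the back for both labels. The endothelial marker Kdr went the other way for the positive label, at 0.824 FPKM in the foot and 0.431 FPKM in the back. For the negative label Kdr stood at 0.439 and 0.477 FPKM. Pericyte and smooth muscle markers differed among themselves. Acta2 made up most of their sum in the back, at 21.9 and 13.7 FPKM against 1.67 and 1.98 FPKM in the foot. Rgs5, a pericyte marker, went the other way, at 7.53 and 4.74 FPKM in the foot and 0.283 and 0.199 FPKM in the back. The list summed to 10.9 and 10.6 FPKM in the foot and to 25.4 and 16.6 FPKM in the back.

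The rest of the basement membrane was followed through 76 other listed genes. Of these, 52 had an entry of their own in all 4 libraries and reached 1 rescaled FPKM in a library. Col7a1 is not among the 52, because its entry was shared with Mir711 and absent from the foot library labelled positive. That shared entry stood at 2.62 FPKM (1.25 to 5.61) in the foot library labelled negative. In the labelled-positive and labelled-negative back libraries it stood at 9.12 and 11.1 FPKM, and it was not compared. In the foot 2 were called higher and 2 lower in the library labelled positive, each 6.06% of the 33 that passed the filter. Of all genes past the filter in the foot, 11.3% were called higher and 9.77% lower. In the back 2 were called higher and 1 lower, 6.25% and 3.12% of 32, against 4.05% and 3.61% of all genes. The higher genes in the foot were Prss12 and Timp3 and the lower ones Col15a1 and Dag1. In the back Col4a5 and Fbln2 were called higher and Bmp1 lower.

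Prss12, neurotrypsin, is the protease that cleaves agrin, and its levels ran with those of Agrn across the labels. It stood at 7.51 FPKM (5.74 to 9.20) and 1.73 FPKM (1.23 to 2.23) in the labelled-positive and labelled-negative foot libraries, and at 2.49 FPKM (2.13 to 2.85) and 0.308 FPKM (0.181 to 0.426) in the back. The log2 ratio was 1.76 ± 0.38 in the foot and 1.41 ± 0.22 in the back, where the level was below the filter. Dag1, dystroglycan, the receptor that Agrn and Lama2 bind, stood at 3.0 FPKM (2.20 to 3.80) in the foot library labelled positive and between 5.55 and 8.78 FPKM in the other 3. Its foot ratio was -1.06 ± 0.31 and its back ratio 0.05 ± 0.13, so that, as for Hspg2, the foot library labelled positive stood apart and the back ratio was within its margin. The 9 measured genes listed under dystroglycan glycosylation had 0 calls in either label comparison, and their medians were 0.16 (foot) and 0.22 (back). Among 15 laminin and agrin receptor genes, Dag1 was the only call by label, and the medians were -0.28 and 0.05.

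Collagen genes of the basement membrane differed in direction. Of 6 measured, with Col7a1 not counted, 0 were called higher and 1 lower in the foot. In the back 1 was called higher and 0 lower. Col15a1, a collagen of vessel and muscle basement membranes, stood at 0.543 FPKM (0.208 to 3.67) in the labelled-positive foot library, against 9.0 FPKM (6.92 to 11.1) under the negative label, a log2 ratio of -2.42 ± 0.99, and at 0.947 and 1.13 FPKM in the back. The label ratio of Col4a5 was 0.90 ± 0.41 for the foot and 1.06 ± 0.26 for the back. Col4a1 and Col4a2, the chains of the common collagen IV network, had foot ratios of 0.65 ± 0.21 and -0.83 ± 0.37, opposite in sign, and back ratios of -0.38 ± 0.08 and -0.48 ± 0.15.

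Of 11 other basement membrane components, 0 were called by label in the foot and 1 higher in the back, Fbln2, a fibulin that binds nidogen and perlecan. Fbln2 stood at 151.8 FPKM (142.5 to 163.4) and 248.6 FPKM (236.9 to 261.6) in the labelled-positive and labelled-negative foot libraries, and at 24.4 FPKM (22.2 to 25.2) and 8.92 FPKM (7.90 to 10.1) in the back. Its label ratios were -0.46 ± 0.12 in the foot and 1.16 ± 0.19 in the back, and its foot to back ratios were 2.36 ± 0.13 and 3.98 ± 0.18. Ntn1, a laminin-related guidance protein, was lower in the foot by both labels, at -1.37 ± 0.31 and -1.44 ± 0.19. Between the skins, 5 of the 52 were called higher and 2 lower in the foot for the positive label, which is 15.2% and 6.06% of the 33 that passed the filter, against 16.1% and 15% of all genes. For the negative label 7 were called higher and 4 lower, 21.9% and 12.5% of the 32 that passed, against 14.8% and 14.48%. Timp3, a matrix-bound protease inhibitor, had a label ratio of 1.01 ± 0.27 in the foot, and Bmp1, a protease that trims laminin and procollagen chains, one of -1.25 ± 0.18 in the back, where the value labelled negative lay outside its own bounds.

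The other calls among these genes lay mostly between the skins. Sparc, a collagen-binding matrix protein that stood at 1744 and 3490 FPKM in the labelled-positive and labelled-negative foot libraries and at 708.6 and 707.8 FPKM in the back, each outside its own bounds, had foot to back ratios of 1.06 and 1.60. Frem1, a protein of the epidermal basement membrane, had a ratio of 1.01 ± 0.24 for the positive label and Dag1 one of -1.14 ± 0.30, and Timp3 and Prss12 stood at 1.40 ± 0.25 and 1.10 ± 0.33. For the negative label Mmp2, a matrix metalloproteinase, was higher in the foot at 1.98 ± 0.10, as were Col15a1 at 1.72 ± 0.48, Sdc2, a syndecan, at 1.33 ± 0.14, Timp1 at 1.33 ± 0.32 and Sgce, a sarcoglycan, at 1.10 ± 0.15. Col4a1 was lower in the foot for that label at -1.86 ± 0.14, Bmp1 at -1.64 ± 0.21 and Itga8 at -1.16 ± 0.32. In the difference of the label ratios, 4 of the 52 were called higher (Itga8, Timp3, Bmp1 and Col4a1) and 6 lower (Col15a1, Fbln2, Mmp2, Lamb1, Dag1 and Sdc2). Of all 6258 genes past the filter there, 13.1% were called higher and 13.1% lower. The 52 include genes below that filter, which could not be called. The abundant genes without a call included Rpsa, a laminin-binding ribosomal protein, at 69.6 to 119.1 FPKM, Mmp14 at 30.3 to 52.5 FPKM, and the glycosylation genes Dpagt1 and B3gnt1 at 6.42 to 11.4 FPKM, and Lamc3 did not exceed 1.27 FPKM.

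**Figure D5:**
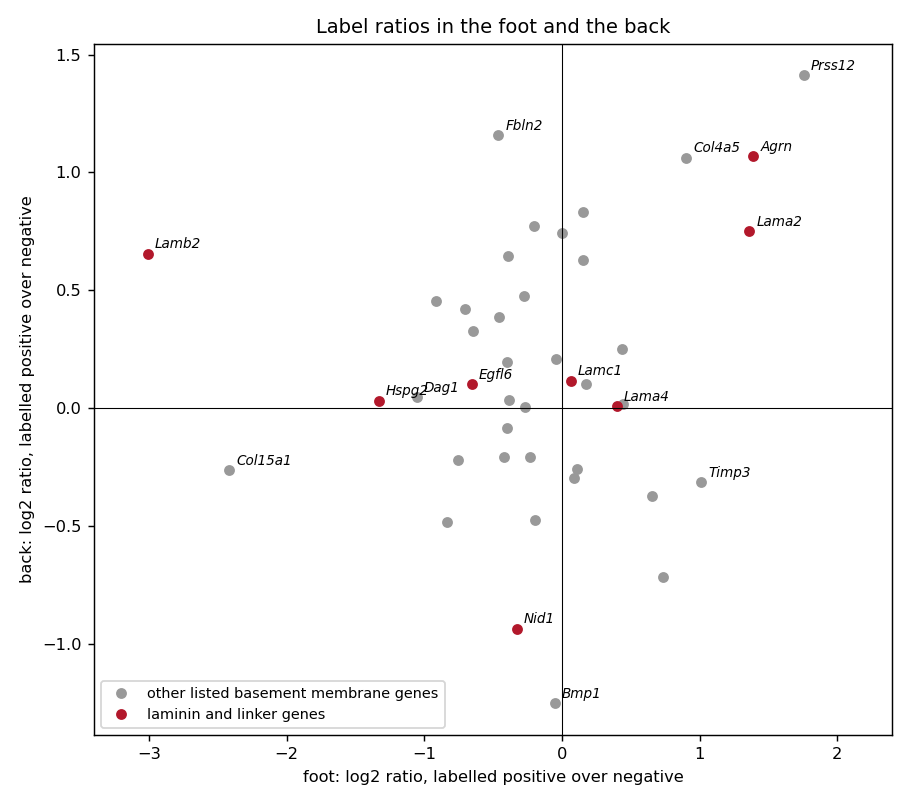
Label ratio in the foot against label ratio in the back for 8 of the 10 genes (red) and 34 other listed basement membrane genes (grey) with at least 5 rescaled FPKM in a library, each axis a log2 ratio on rescaled FPKM with 1 added and no error shown. Agrn, Lama2, Col4a5 and Prss12 lie at the upper right, and Lamb2 at the far left with 0.66 in the back; Nid2 and Lama5 are not drawn because they are listed at 0 in the foot or below 5 FPKM.

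For each of the 9 genes with enough signal and range, the 2 genes with the nearest profile over the 4 libraries were found among 4930 genes by the distance between mean-centred log2 values. Lama2 was nearest to Dmtf1 and Epdr1, at distances of 0.12 and 0.17, and Dmtf1 stood at 19.0, 8.49, 7.59 and 3.93 FPKM in the usual order of libraries. Agrn was nearest to Apod and Mbd1, at 0.23 and 0.27, with Apod at 39.8, 16.7, 57.2 and 18.2 FPKM. Egfl6 was nearest to St8sia2 and Sfxn1, at 0.11 and 0.13. Nid1 was nearest to Bace1 and Ebp, at 0.11 and 0.17, and Nid2 to Acta2 and Tmeff2, at 0.17 and 0.26. Acta2, smooth muscle actin, is one of the pericyte and smooth muscle markers, and Rgs5 of the same list did not share its profile. Hspg2 was nearest to Pwp1 and M6pr at 0.10 each, Lamc1 to Dek and Nsun2 at 0.08 and 0.09, and Lama4 to Ccnc and Suv39h1 at 0.05 and 0.07. Lamb2 had the most distant neighbours, Gm2004 and Sirt4 at 0.29 and 0.33. With 4 libraries such likeness describes profiles only.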

How the data were processed

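Messenger RNA libraries from 4 groups of sorted dermal cells, 1 each, were analysed. Per the submitters' processing notes, TopHat, Cufflinks and mm9 were used, and the sources used here do not give versions or settings. The unit deposited by the authors is FPKM, per the file headers, with bounds below and above and a status for each gene or assembled locus. The confidence level of the bounds is not stated in the files, and read counts were not used here, so depth is unknown and precision is given by the bounds. The tables held 43604, 47223, 46924 and 41090 entries in the foot by positive and negative label and then the back, of which 6907, 10608, 10467 and 4644 were unnamed.

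FPKM values were divided by median-ratio factors of 1.08, 1.28, 0.920 and 0.788 over 3354 coding genes of at least 5 FPKM in every library. As deposited, the median of these genes stood at -0.23 in the foot, 0.21 in the back, 0.22 and 0.67 for foot against back by label, and -0.44 for the difference, on the log2 scale. Log2 ratios used a pseudocount of 1, so changes of low genes are understated. A gene was called at a 2-fold difference with the larger rescaled value at least 5 FPKM. Margins combine the bounds of the compared values in quadrature on the same scale. Levels are printed as deposited. The scaling and the calls were tested on simulated data drawn around genes of at least 5 FPKM in every library. Lower levels, where several of the members lie, were not covered by that check. The steps ran in Python 3.11.15 with pandas 2.3.3 and numpy 2.4.6.

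The members, 18 gene lists and the naming rule were chosen with earlier results of these data known. Besides the members and Axin2, the naming rule took list genes called in a comparison, up to the 4 largest per list, the 2 with the highest mean per list, and the 2 nearest profiles. Of 141 listed genes, 2 had no entry. Lama1, Lama3 and unnamed loci were described after their values were seen. Alternatives were no rescaling, upper-quartile scaling, other pseudocounts, other filters, bounds apart, entries outside their bounds left out, and unnamed loci added. No paired analysis and no test were possible with 1 library per group. One marker gene is not reported here, and the list that held it is summed without it.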

Additional observations from a re-analysis of the deposited data

Results flagged for a closer look

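The Egfl6 label ratio had opposite signs in the 2 skins. It was -0.66 ± 0.27 in the foot and 0.10 ± 0.09 in the back on the log2 scale, each larger than its margin. The difference was not tested, since each group is 1 library, and in the back the rescaled bounds of the pair overlapped.

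Signal also stood in assembled entries that carry no gene name and lie inside a member's locus. These were 7.91 FPKM inside Lamc1 in the foot library labelled negative, 6.57 FPKM inside Lamc1 in the back library labelled positive and 20.3 FPKM inside Nid1 in the back library labelled positive. Longer ones outside their own bounds stood at 64.4 FPKM inside Lamc1 in the foot library labelled positive, 53.5 FPKM inside Nid2 in the back library labelled negative and 52.6 FPKM inside Egfl6 in the back library labelled positive. The levels of these genes there do not include them. In all, 33 unnamed entries lay inside 6 of the 10 genes, and 26 of them spanned under 300 bases.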

How the results depend on the processing

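Of 550 recomputed ratios of the 10 genes, 489 stayed within their margins, 61 moved beyond them and 0 called ratios changed sign. Of 307 recomputed medians, counts and chain ratios, 57 moved. Unless said otherwise the cause was not tested. Counts are given as higher and lower calls, for the 10 genes and for the other 52 measured basement membrane genes. The share of all genes called was not recomputed under these settings, so the counts describe the settings and have no background beside them.

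Without rescaling, the median over the 10 was 0.32 in the back and -0.37 for foot against back, label negative, where 2 were called higher and 1 lower. The other genes then had 1 higher and 5 lower calls in the foot, 1 lower for foot against back, label positive, 12 higher and 1 lower for the label negative, and 1 higher and 14 lower in the difference between skins. As deposited, the 3354 scaling genes also had medians off 0. These were -0.23 in the foot, 0.67 for foot against back, label negative, and -0.44 for the difference. Upper-quartile scaling left 1 other gene higher in the foot. A pseudocount of 5, which shrinks every ratio, gave the 10 genes 0 higher and 1 lower calls in the foot, 0 higher in the back, 0 higher and 3 lower for foot against back, label positive, and 1 lower in the difference. With it the foot to back medians were -0.65 and -0.34, and the other genes had 0 higher and 1 lower calls in the foot, 0 higher in the back, 2 higher and 0 lower for foot against back, label positive, 2 lower for the label negative, and 1 higher and 3 lower in the difference. A pseudocount of 0.1 gave foot to back medians of -1.70 and -1.13, 1 lower call in the back and 5 for foot against back, label negative.

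A minimum of 10 FPKM, which tests fewer genes, left the 10 with 1 higher and 1 lower call in the foot, 3 and 1 lower for foot against back, label positive and negative, and 1 lower in the difference. The other genes then had 1 higher and 0 lower in the foot, 1 higher in the back and 1 lower for foot against back, label positive. A minimum of 1 FPKM or none gave them 4 higher in the back, 8 higher and 5 lower for foot against back, label positive, and 7 lower for the label negative. Asking for bounds apart removed Lamb2, leaving 0 higher calls for foot against back, label negative, and 1 lower in the difference. Leaving out entries outside their own bounds left 0 other genes lower in the back. Adding the unnamed entries, chosen after seeing the data, gave medians of 0.26 in the back and -0.50 in the difference, 1 higher call for foot against back, label positive, 2 lower for the label negative, and beta to gamma ratios of 5.77 in the foot library labelled negative and 2.22 in the back library labelled positive. No paired analysis was possible because each group is 1 library. The bounds limit the foot values most.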
